A study of Mus musculus with 147 samples.

Results

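Connexins are the membrane proteins that assemble into gap junction channels, the pores through which neighbouring cells exchange ions and small molecules. In the wall of the afferent arteriole, gap junctions couple renin-producing juxtaglomerular cells, smooth muscle cells and endothelial cells. Cx40, the protein of Gja5, is known as the connexin of renin cells, and mice that lack it make renin in the wrong place and in excess. The 4 connexin genes described here were Gja5 (Cx40), Gja4 (Cx37), Gja1 (Cx43) and Gjc1 (Cx45). They were taken by symbol from the gene column of the WT and Renin-null count tables, and all 4 were found among the 35438 genes listed.

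The study sorted YFP-positive cells from the kidney cortex of adult C57BL/6 mice and sequenced them one per well on a Fluidigm C1 with a full-length protocol that carries no molecular identifiers. WT cells came from Ren1c+/+ Ren1c-YFP mice and Renin-null cells from Ren1c-/- Ren1c-YFP mice. In both genotypes YFP was a transgene under the 5′ regulatory sequence of Ren1c, and pups carrying the knockout allele received saline after birth. The labels tie no cell to a mouse, and cells of several mice were pooled. There were 51 WT wells, in 1 library, and 96 Renin-null wells, in 2 libraries named YFP1 and YFP2 with 48 wells each. Each genotype was therefore treated as 1 sample with no replicate check, no test between genotypes was made, and genotype cannot be told apart from the capture and library. All intervals below are 95% intervals. Those of summed levels and ratios cover counting error only. Those of shares of wells, and of differences of shares, treat wells as independent draws. None covers variation between mice, captures or libraries, so they describe these wells and are not a test between genotypes.

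Depth differed between wells more than between genotypes. Total counts ranged from 26401 to 17124854 in the WT wells and from 3628 to 14505243 in the Renin-null wells. Wells that reached 100000 counts and 1000 genes with no more than 25% of counts from mitochondrial genes were set apart as quality wells. There were 15 of them in WT and 57 in Renin-null. The other 36 WT wells had a median of 64.9% mitochondrial counts and the other 39 Renin-null wells a median of 65.3%. Those WT wells still held 24.3% of the WT counts, against 11.0% for their Renin-null counterparts.

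The labels were checked on Ren1 first. Ren1 had counts in all 51 WT wells, with a level of 96023 CPM (counts of a gene per 1000000 counts in all) in the sum of the wells. In the Renin-null wells, where the gene is deleted, it had 54 counts in all, in 16 of 96 wells, with at most 17 counts in a well. That share of 16.7% (exact interval 9.84 to 25.7) shows how often a few counts were seen of a gene that the cells could not transcribe intact. Akr1b7, an aldo-keto reductase made by renin cells, had counts in 51 WT and 94 Renin-null wells. EYFP, the reporter used for sorting, had counts in 37 of 51 WT and 88 of 96 Renin-null wells.

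Some Renin-null wells had nearly the same profile as another. The profiles of 4 pairs correlated at 0.974 to 0.987 (Pearson, log2(CPM + 1) over all genes), and the next pair reached 0.896. In 3 of the 4 pairs (wells 45 and 93, 46 and 94, 47 and 95) one well was in YFP1 and the other in YFP2, so the 2 libraries may share cells. Both wells of the other pair (48 and 96) were in YFP2. These pairs mattered most for Gja4. For log2 ratios and shares of wells, values with each pair counted once (92 Renin-null wells) are given where they changed the picture. Other values, such as the correlations, the marker lists and the number of connexins per well, were not redone that way.

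Gja5 had at least 1 count in nearly every WT well. It had a count in 49 of 51 WT wells, or 96.1% (exact interval 86.5 to 99.5), and in 40 of 96 Renin-null wells, or 41.7% (31.7 to 52.2). The share was the same in both Renin-null libraries, at 20 of 48 wells in YFP1 and 20 of 48 in YFP2. With near-identical wells counted once it was 37 of 92. The lowest, median and highest levels over the WT wells were 0, 20.7 and 2318 CPM. Over the Renin-null wells they were 0, 0 and 1528 CPM. The ranges overlapped, but 33 WT wells reached 10 CPM and only 7 Renin-null wells did. In quality wells 6 of 15 WT wells (40%, 16.3 to 67.7) and 4 of 57 Renin-null wells (7.02%, 1.95 to 17.0) reached it. Some deep WT quality wells held few Gja5 counts, such as well 8 with 2 in a total of 7739469. The difference in shares was -54.4 percentage points (-64.2 to -40.8, Renin-null minus WT). Of 18720 genes with over 3 counts in either genotype, 4.06% had a lower share of wells in Renin-null with intervals that did not overlap, and Gja5 was one of them. The study's own list of genes that differed between these cells includes Gja5, so its direction here is not independent evidence.

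**Figure D1:**
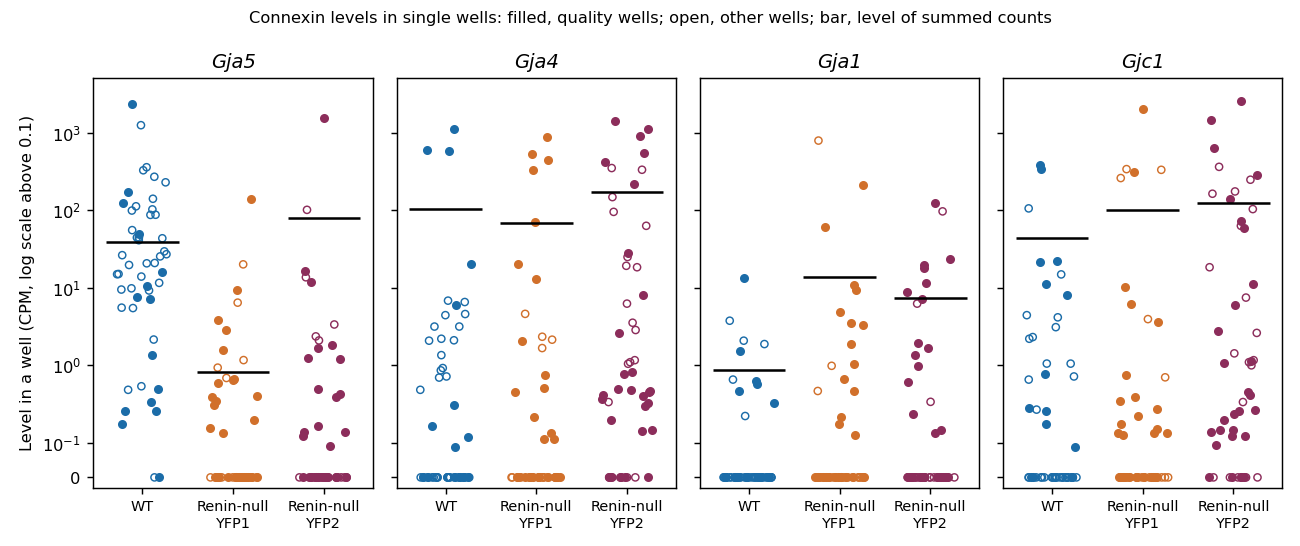
Levels of the 4 connexins in single wells (vertical axis, CPM, log scale above 0.1) for WT, Renin-null YFP1 and Renin-null YFP2. Each point is 1 well, filled for quality wells and open for the others, and black bars give the level of the summed counts. Gja5 points of WT spread over most of the range while 40 of 96 Renin-null wells lie above 0, and the Renin-null bar of YFP2 is set by a single well at 1528 CPM.

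The summed level of Gja5 hid this difference. Summed over wells, Gja5 had 7730 counts or 39.1 CPM in WT (38.2 to 39.9) and 17188 counts or 43.1 CPM in Renin-null (42.5 to 43.7), a log2 ratio of 0.14 (0.10 to 0.18, Renin-null over WT). Of the Renin-null counts, 16469, or 95.8%, came from YFP2 well 89. The next Renin-null wells held 230 and 121 counts. With the highest well of each genotype left out, WT stood at 31.5 CPM and Renin-null at 1.85 CPM, a log2 ratio of -4.09 (-4.20 to -3.98). At that setting 11.1% of 16553 genes had a ratio of -1 or lower and 62.7% a ratio of 1 or higher. YFP1 alone held 151 Gja5 counts, for a log2 ratio of -5.55. The ratio was 1.00 in YFP2 alone and 0.62 in quality wells, and both of these sets hold well 89. As a mean over wells of log2(CPM + 1), Gja5 differed by -3.66 (Renin-null minus WT), and 0.134% of all genes had a lower value.

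Well 89 was a deep well. It held 10776522 counts, with 69936 of Akr1b7, 12372 of Pdgfrb (a receptor of pericytes and mesangial cells) and 24698 of Col1a1 (a fibrillar collagen), and no Ren1. Its mesangial list stood at 13178 CPM (3 of 3 markers, mostly Serpine2, beside 2785 CPM over all Renin-null wells), its fibroblast list at 4550 CPM (2 of 6, beside 625) and its podocyte list at 350 CPM (3 of 5, mostly Synpo, beside 559). The smooth muscle list was lower, at 3660 CPM (7 of 7, beside 12210), with 36 counts of Myh11. Gja5 is also a connexin of arterial endothelium, so endothelial markers were read in the same well. Cdh5, the endothelial cadherin, was at 0, Pecam1 had 2 counts, and 9 of the 13 markers on the list were at 0. The list summed to 41.4 CPM there, most of it Esam. The other connexins were nearly absent from the well, with 5 counts of Gja4, 1 of Gjc1 and 0 of Gja1.

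In WT, Gja5 was found as readily in poor wells as in good ones. The 15 quality wells had a lowest, median and highest count of 0, 50 and 1820, and the other 36 wells 0, 23.5 and 726. In CPM the median was 7.16 in the quality wells and 26.7 in the others. Among the 25 shallower WT wells (at most 1437586 total counts) 24 had a Gja5 count, and among the 26 deeper wells 25 did. The highest level, 2318 CPM, came from a well with 257 Gja5 counts in a total of 110872. Renin-null wells outside the quality set held Gja5 less often, but they were also shallower. Outside the quality set the median depth was 1153970 counts in WT (lowest 26401) and 776222 in Renin-null (lowest 3628). Wells below 62000 counts numbered 2 in WT and 13 in Renin-null. Gja5 had a count in 35 of 36 WT wells outside the quality set and in 10 of 39 such Renin-null wells. The part of depth in this difference was not tested within this set. In quality wells the shares were 14 of 15 (93.3%, 68.1 to 99.8) and 30 of 57 (52.6%, 39.0 to 66.02).

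The difference in shares was also seen with each well thinned to 62000 counts, shallower wells left out, at 29 of 49 WT wells and 10 of 83 Renin-null wells. With a limit of 10 counts the shares were 37 of 51 and 13 of 96. A count in nearly all WT wells was shared by few genes, as 473 genes had a count in at least 90% of them. The median such gene had counts in 86.5% of the Renin-null wells, against 41.7% for Gja5. In WT the median such gene had a median of 13.5 counts in wells outside the quality set and 717 in quality wells. For Gja5 these medians were 23.5 and 50, so its counts rose less in the quality wells. The part of this in its WT share was not tested. Over the 51 WT wells the Spearman correlation of Gja5 with Ren1 in CPM was 0.022, and with total counts -0.38. Over the 15 quality wells that with Ren1 was 0.40. These are descriptions over wells of 1 library that share depth.

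**Figure D2:**
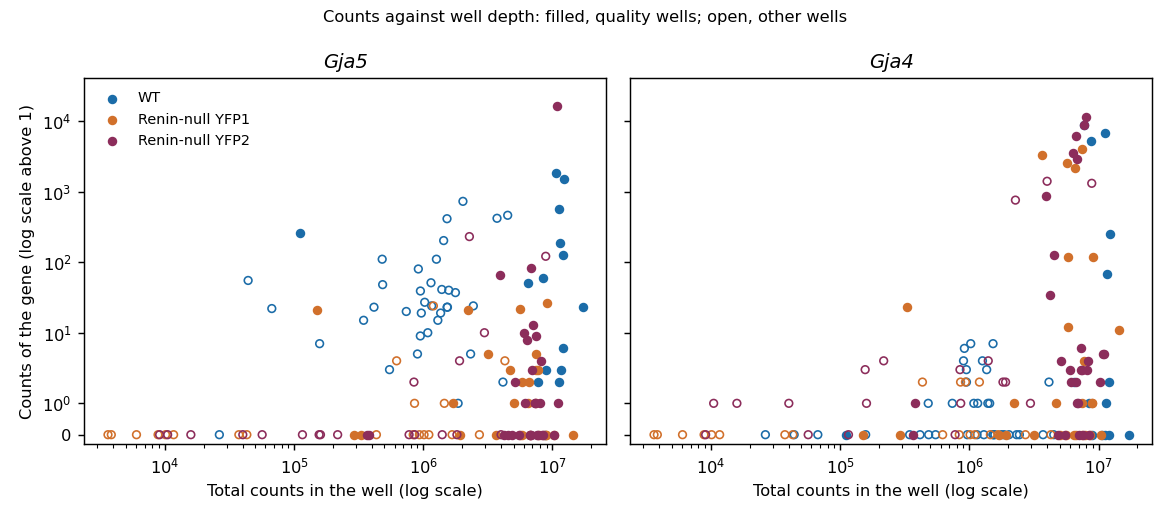
Counts of Gja5 (left) and Gja4 (right) in each well (vertical axis, log scale above 1) against the total counts of the well (horizontal axis, log scale), filled for quality wells and open for the others. WT wells hold Gja5 at all depths with a median of 24 counts, while Gja4 counts of 100 or more in WT are found in 4 wells, all of the quality set.

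Wells can receive counts from each other when they share a sequencing index. Of the 14 WT wells that shared an index with the highest Gja5 well (1820 counts), 14 had a Gja5 count, with a median of 90. Of the 36 that shared none, 34 had a count, with a median of 23. For Gja4, 13 of 15 WT wells that shared an index with the highest well had a count (median 2 counts), and 10 of 35 that shared none did. For WT Gja1 it was 0 of 14 against 10 of 36 and for WT Gjc1 5 of 14 against 17 of 36, the other way round. In YFP2, 9 of 14 wells that shared an index with well 89 had a Gja5 count (median 1.5 counts), and 10 of 33 that shared none did. In YFP1 it was 5 of 14 against 14 of 33 for Gja5, the other way round. For Gja4 it was 6 of 14 against 12 of 33 in YFP1 and 11 of 14 against 26 of 33 in YFP2. The part of index exchange in the low counts was not tested beyond these values.

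The shares of wells of the other connexins lay closer together. Gja4 had a count in 24 of 51 WT wells (47.1%, 32.9 to 61.5) and 57 of 96 Renin-null wells (59.4%, 48.9 to 69.3). For Gjc1 it was 23 of 51 (45.1%, 31.1 to 59.7) and 59 of 96 (61.5%, 51.0 to 71.2). For Gja1 it was 11 of 51 (21.6%, 11.3 to 35.3) and 35 of 96 (36.5%, 26.9 to 46.9). The intervals of these 3 genes overlapped between genotypes, while 12.6% of all genes tested had a higher share in Renin-null with intervals apart. The differences were 12.3, 16.4 and 14.9 percentage points, and the interval of each included 0. With a limit of 10 CPM, Gja4 passed in 4 of 51 WT and 22 of 96 Renin-null wells. The interval of that difference did not include 0 (15.1 points, 2.17 to 25.6). It did with a limit of 10 counts (11.0 points, -2.12 to 21.7) and with a limit of 1 count in thinned wells (14.3 points, -0.33 to 26.5). These intervals treat the wells of a genotype as independent, so no difference between genotypes is concluded from them. Some of the 22 were shallow wells, such as well 64 with 1 Gja4 count in a total of 10502. All 8 wells of the near-identical pairs were among the 22, and with each pair counted once, as added after seeing the data, it was 18 of 92 and the interval included 0 (11.7 points, -0.93 to 22.1). The 2 Renin-null libraries differed from each other for Gja4, at 19 of 48 wells in YFP1 (39.6%, 25.8 to 54.7) and 38 of 48 in YFP2 (79.2%, 65.01 to 89.5), and for Gjc1, at 21 of 48 (43.8%, 29.5 to 58.8) and 38 of 48 (79.2%, 65.01 to 89.5). For Gja4 most of that gap was in wells with a few counts, since wells with at least 10 counts numbered 9 and 11. For Gjc1 such wells numbered 6 and 14, and wells with at least 100 counts 1 and 8.

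**Figure D3:**
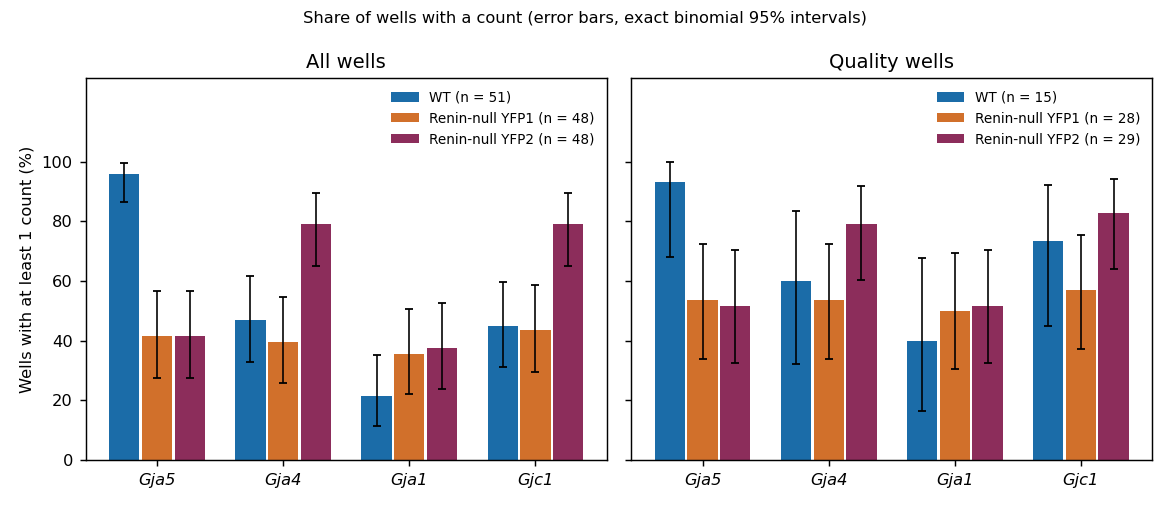
Share of wells with at least 1 count (vertical axis, %) of each connexin in WT, Renin-null YFP1 and Renin-null YFP2, over all wells (left) and quality wells (right), with exact binomial 95% intervals. Over all wells Gja5 stands at 96.1% in WT and 41.7% in both Renin-null libraries, while for Gja4 and Gjc1 YFP2 is at 79.2% and YFP1 is near WT. Over quality wells Gjc1 stands at 73.3% in WT, 57.1% in YFP1 and 82.8% in YFP2.

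Gja4 was held at high levels by few wells of either genotype. Its protein Cx37 is a connexin of vascular endothelium that renin cells and arteriolar muscle also make. Over the WT wells the lowest, median and highest levels were 0, 0 and 1119 CPM, and over the Renin-null wells 0, 0.332 and 1434 CPM. In WT, 3 wells with 8660, 6651 and 5123 counts held 98.2% of the 20801 Gja4 counts, and the next reached 248 counts. The 36 WT wells outside the quality set had at most 7 counts each. In Renin-null, 16 wells held at least 100 counts each, and the highest held 11517, or 23.3% of 49425. Endothelial markers were read in the highest wells. Cdh5 was at 0 in the 3 WT wells and the Pecam1 count was between 7 and 39. In the highest WT well 8 of 13 endothelial markers were at 0 and the list summed to 8.27 CPM, and in the highest Renin-null well (65) 9 of 13 were at 0, with 192 CPM in all, most of it Esam. In the third WT well (44) 9 of 13 were at 0, but the list summed to 417 CPM, most of it Ehd3. The second Renin-null well (82) had counts of 9 of 13 endothelial markers and 194 CPM in all. Vwf, the von Willebrand factor of endothelium, had 1467 counts there, the highest of the Renin-null wells, beside 1 of Cdh5 and 8 of Pecam1. The part of these markers in the Gja4 level was not tested. The highest WT well (8) held 80560 counts of Akr1b7 and 15803 of Acta2, which is smooth muscle actin, and well 65 held 41955 and 107167. The smooth muscle list was lower in well 8, at 3594 CPM beside 11021 over all WT wells. It was higher in the other WT wells (6 and 44), at 23474 and 27296 CPM. It stood at 30182 CPM in well 65 and 51696 CPM in well 82, beside 12210 over all Renin-null wells. Akr1b7 stood at 10409, 6623 and 1548 CPM in WT wells 8, 6 and 44, beside 4528 over all WT wells. In wells 65 and 82 it stood at 5223 and 802 CPM, beside 2011 over all Renin-null wells. The fibroblast list stood at 4022 CPM in well 82 and 184 CPM in well 65, beside 625 over all Renin-null wells. In the 3 WT wells it stood at 1.55, 1213 and 4.46 CPM, beside 171 over all WT wells. Well 65 also held 3339 counts of Lrp2, a proximal tubule marker. The part of these lists was not tested either.

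The summed levels of Gja4 were 105 CPM in WT (104 to 107) and 124 CPM in Renin-null (123 to 125), a log2 ratio of 0.24 (0.21 to 0.26). Across all genes the median log2 ratio was 1.17, with 52.4% of genes at 1 or higher and 18.5% at -1 or lower, so Gja4 lay 0.93 below the median gene and Gja5 1.03 below it. The sign of the Gja4 ratio was not stable. It was -0.64 in YFP1 alone, 0.70 in YFP2 alone and -0.10 in quality wells. With near-identical wells counted once it was -0.13. The members of those pairs held 4010 and 3523, 3263 and 6097, 2505 and 2846, and 856 and 1308 Gja4 counts, so 6 of the 9 highest Gja4 wells of Renin-null belonged to the first 3 pairs. With the 3 highest wells of each genotype left out, an alternative added after seeing the data, the ratio was 4.83, since few WT counts were left.

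Gjc1 had a higher summed level in Renin-null, with most of the Renin-null counts in 2 wells. Cx45, its protein, is the connexin of vascular smooth muscle and of the conduction system of the heart. The lowest, median and highest levels were 0, 0 and 381 CPM in WT and 0, 0.163 and 2551 CPM in Renin-null. Summed counts gave 43.7 CPM in WT (42.8 to 44.6) and 113 CPM in Renin-null (112 to 114), a log2 ratio of 1.37 (1.34 to 1.404), which was 0.20 above the median gene. Of the 45053 Renin-null counts, 18261 came from YFP1 well 25 and 17765 from YFP2 well 74. The remaining YFP1 wells had at most 47 counts each. In WT, 2 wells (3914 and 3380 counts) held most of the 8644 counts and the next had 475. With the highest well of each genotype left out the ratio was 1.44, and 0.40 below the median gene at that setting. The ratio was positive under each of the 12 alternatives tried. Acta2 counts were 96964 and 61978 in these WT wells (28 and 33) and 49021 and 21484 in wells 25 and 74. The endothelial list summed to 1550 CPM in well 28 (3 of 13 markers with a count, nearly all of it Esam) and to 133 CPM in well 33 (5 of 13, mostly Ehd3). It summed to 271 CPM in well 25 (5 of 13, mostly Esam) and 154 CPM in well 74 (5 of 13, mostly Ehd3), and Cdh5 was at 0 in these 4 wells. Well 28 also held 4059 counts of Fxyd4, with the collecting duct list at 356 CPM, and had Cnn1 and Des of the smooth muscle list at 0. The next Renin-null well (87, 3484 Gjc1 counts) had 9 of 13 endothelial markers with a count and 2143 CPM in all, with 8970 counts of Emcn and 15 of Cdh5, and its podocyte list stood at 2284 CPM. The part of these markers in the Gjc1 level was not tested.

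Gja1 was the least abundant of the 4 in WT and was higher in Renin-null. Its protein Cx43 is the most widespread connexin, made by fibroblasts, heart muscle and many other cells. Summed counts were 173 in WT, or 0.874 CPM (0.749 to 1.015), and 4132 in Renin-null, or 10.4 CPM (10.0 to 10.7). The log2 ratio was 3.57 (3.35 to 3.79), or 2.39 above the median gene, and 74.6% of genes had a lower ratio. It was above 0 under each of the 12 alternatives and in each library alone, at 3.98 in YFP1 and 3.10 in YFP2. The lowest, median and highest levels were 0, 0 and 13.5 CPM in WT and 0, 0 and 790 CPM in Renin-null, the last in a shallow well with 8 Gja1 counts in a total of 10121. In WT 1 well held 120 of the counts and the next 10. In Renin-null 19 wells had at least 10 counts, against 2 in WT, a difference of 15.9 percentage points (4.39 to 25.4). A limit in counts depends on the depth of a well, and the part of depth in this difference was not tested. The interval included 0 with a limit of 10 CPM (8.46, -1.10 to 16.3). With a limit of 1 count it included 0 in thinned wells (8.80, -1.21 to 17.5) and in quality wells (10.9, -16.5 to 34.6). At 10 counts the shares in quality wells were 13.3% in WT (1.66 to 40.5) and 31.6% in Renin-null (19.9 to 45.2).

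The 2 highest Gja1 wells of Renin-null held little of the renin cell or muscle genes and markers of more than 1 other list. Well 7 of YFP1 held 1900 Gja1 counts with 6744 of Dcn, the matrix proteoglycan decorin, but 26 of Akr1b7 and 20 of Acta2. Well 51 of YFP2 held 949 Gja1 counts with 1178 of Dcn, 7 of Akr1b7 and 55 of Acta2. In both, 3 of the 6 fibroblast markers (Pdgfra, Lum and Dpt) were at 0, and the list summed to 753 and 157 CPM, nearly all of it Dcn. Gata3, a transcription factor on the mesangial list that the collecting duct also makes, stood higher in well 51 (39585 counts, 5182 CPM) than Dcn did (154 CPM), and in well 7 it had 4758 counts (531 CPM). Well 51 also held 5704 counts (747 CPM) of Fxyd4, a collecting duct marker that was at 0 in well 7, while Aqp2, Aqp3 and Hsd11b2 of the same list were at 0 in both. EYFP had 7 and 1 counts there. In WT Dcn had counts in 3 wells with at most 3 counts. Over all wells the fibroblast list stood at 171 CPM in WT (5 of 6 markers with a count, Dpt at 0, Col1a2 the most abundant) and 625 CPM in Renin-null (likewise 5 of 6 and Dpt at 0, Col1a2 the most abundant). With the 3 highest wells of each genotype left out, the ratio was 3.48, but Gja1 was then 1.03 above the median gene, with 63.5% of genes lower. The next wells differed in make-up. Well 30 of YFP1 held 396 Gja1 counts with 28795 of Acta2, 2154 of Gja4, 1848 of Lrp2 (a proximal tubule marker) and 1 of Dcn. Well 67 of YFP2 held 170 with 14785 of Akr1b7 and 4884 of EYFP. Well 83 of YFP2 held 129 with 4636 of Pecam1 and 3442 of Cdh5, and was the single well of the series with at least 100 counts of both endothelial genes. The same well held 2396 counts of Akr1b7, 5062 of Acta2 and 8410 of Myh11.

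**Figure D4:**
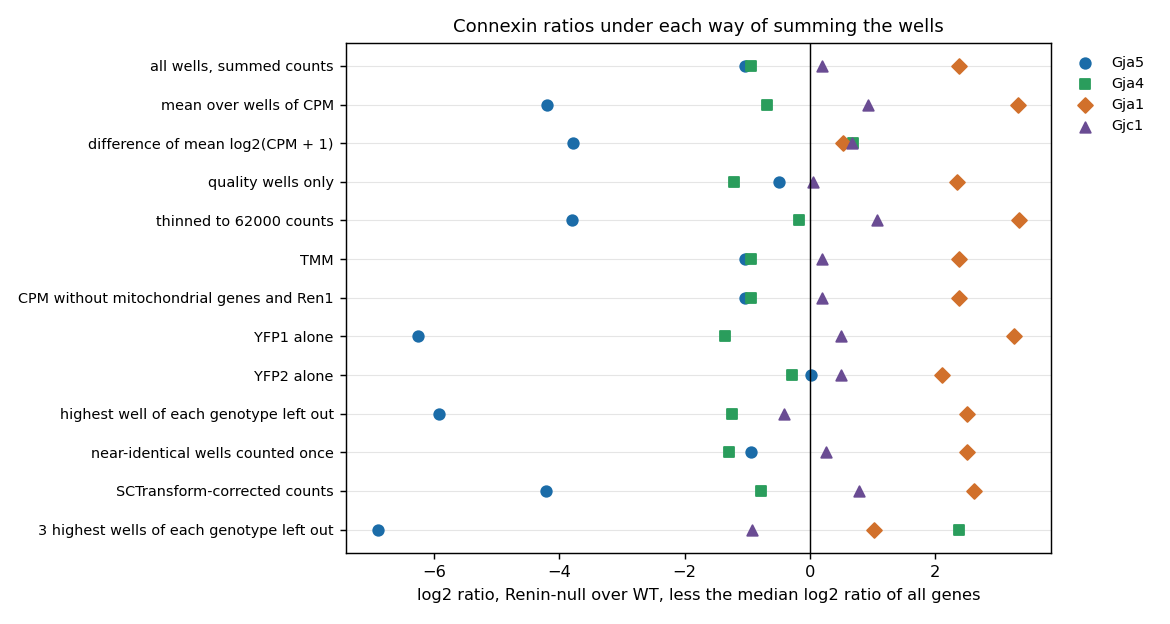
Log2 ratio of each connexin, Renin-null over WT, less the median log2 ratio of all genes at the same setting (horizontal axis), for the summed counts of all wells and the 12 alternatives (vertical axis). Gja1 lies above 0 at every setting shown, and Gja5 lies between 0.02 (YFP2 alone) and -6.89 (3 highest wells left out).

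Levels of different genes were compared per length of the longest coding transcript, in CPM per kilobase. In WT the order was Gja4 at 62.4, Gjc1 at 18.9, Gja5 at 10.6 and Gja1 at 0.275. In Renin-null it was the same, with Gja4 at 73.5, Gjc1 at 48.8, Gja5 at 11.7 and Gja1 at 3.26. The order did not change with the union of exons as the length or in quality wells, but it rested on the few wells that held most counts. With the mean over wells of CPM, Gja5 came first in WT (33.5), before Gja4 (27.5), Gjc1 (7.81) and Gja1 (0.158), and the Renin-null order was the same as for the sums. That mean gives each well the same weight, and its highest Gja5 values came from shallow WT wells. They were well 23 (2318 CPM, 257 counts in 110872) and well 27 (1248 CPM, 55 counts in 44081). The order by this mean without these wells was not computed. With the 3 highest wells of each genotype left out, the WT order was Gja5 (5.78), Gjc1 (2.19), Gja4 (1.28) and Gja1 (0.066), and in Renin-null Gja1 (0.742) came before Gja5 (0.266). Without only the highest well the WT order was that of the sums, but in Renin-null Gja1 (1.80) came before Gja5 (0.505). By wells instead of summed level, Gja5 ranked first in WT (49 of 51 wells) and stood after Gjc1 (59 of 96) and Gja4 (57 of 96) in Renin-null (40 of 96).

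In GRCm38, Gja5 lies on chromosome 3, plus strand, from 96904693 to 97077416. Gpr89, on the other strand, shares 165 exon bases with it, and since the counting did not use strand, reads there cannot be assigned to one of them. Gpr89 had counts in 2 WT and 12 Renin-null wells, and Gja5 in 49 and 40. The part of shared reads in the Gja5 counts was not tested. Gja4 lies on chromosome 4, minus strand, from 127311421 to 127314039. Gja1 lies on chromosome 10, plus strand, from 56377330 to 56402513, and Gjc1 on chromosome 11, minus strand, from 102799579 to 102819700. These 3 overlap no other annotated gene.

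Most quality wells held at most 1 of the 4 connexins at 10 CPM or more. In the 15 WT quality wells 9 held exactly 1 of the 4 genes at 10 CPM or more, 2 held 2, 1 held 3 and 3 held none. In the 57 Renin-null quality wells these numbers were 24, 5, 1 and 27. The median depth of the wells with none was 8383153 counts in WT, below that of the other classes, and 6709916 in Renin-null. In WT, Gja5 and Gja4 were together at 10 CPM in 2 wells, Gja5 alone in 4 and Gja4 alone in 2. In Renin-null they were together in 2, with Gja5 without Gja4 in 2 and Gja4 without Gja5 in 12. Few wells reached this level for any 1 gene, at 6, 4, 1 and 5 WT wells and 4, 14, 8 and 11 Renin-null wells for Gja5, Gja4, Gja1 and Gjc1, so few wells with a pair could occur and nothing is read from their number. The WT well with 3 of the genes (well 10) held 1511 counts of Gja5, 248 of Gja4 and 138 of Gjc1 and had 10791 genes detected. The Renin-null well with 3 was well 48, of a near-identical pair. At a limit of 1 count, Gja5 and Gja4 were together in 8 of 15 WT and 23 of 57 Renin-null quality wells.

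**Figure D5:**
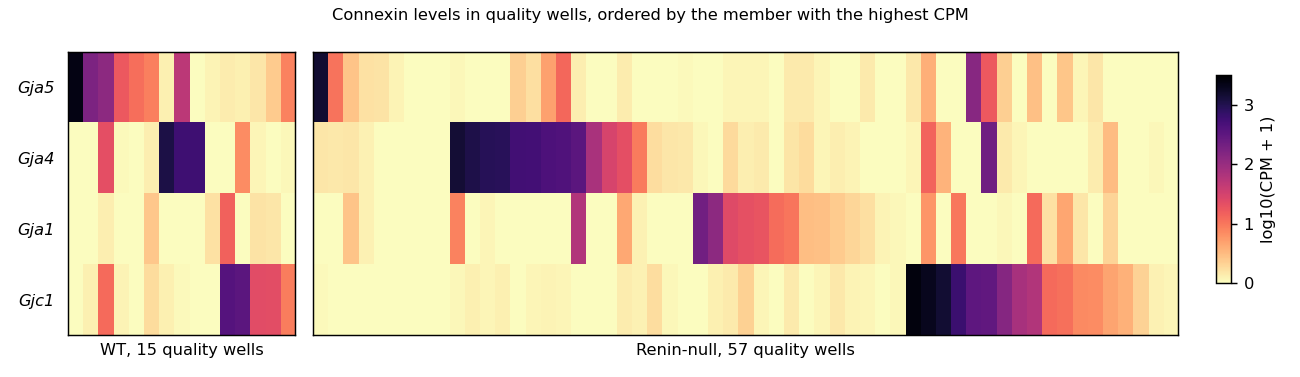
Levels of the 4 connexins (rows, log10(CPM + 1) as colour) in the 15 WT and 57 Renin-null quality wells (columns), ordered by the connexin with the highest CPM in the well. In Renin-null 24 wells hold exactly 1 connexin at 10 CPM or more and 27 hold none.

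The other 16 connexins were low. Of these, 5 had no count in either genotype and 7 had 3 counts or fewer in both. Gjc3 was the single one at 5 CPM or more, with WT at 7.44 CPM and Renin-null at 3.10 CPM, a log2 ratio of -1.26 (-1.37 to -1.15), with 58.8% of the WT counts and 76.6% of the Renin-null counts in 1 well. Of the 9 with a ratio, 6 were at 1 or higher, 2 at -1 or lower and 1 between, around a median of 2.69, beside 52.4%, 18.5% and a median of 1.17 for all genes. Several had no WT count, and their ratios were set against 3 counts, so that median is not a measured fold. Among the 3 pannexins, which form channels related to connexins but not gap junctions, Panx1 had 4 counts in WT and 2859 in Renin-null, of which 99.0% came from 1 well.

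The 17 genes of gap junction partners, which anchor, traffic, phosphorylate or degrade connexins, all had a ratio. Of these 12 were at 1 or higher, 0 at -1 or lower and 5 between, beside 52.4% and 18.5% of all genes, and their median was 2.24 beside 1.17 for all genes. The highest ratios were those of Ubqln4 (9.43), a ubiquilin, Dbn1 (8.97), the actin-binding drebrin, and Prkcd (7.67), a protein kinase C. Their summed counts in WT were 9, 8 and 20. Dbn1 was at -1.29 in YFP1 alone and 9.85 in YFP2 alone, with 7290 of 8104 counts in 1 well. The lowest were those of Tjp1 (-0.96), the scaffold protein ZO-1, Cav1 (-0.67), of caveolae, and Ctnnb1 (-0.50), beta-catenin. Without the highest well of each genotype they were -0.55, -0.24 and 0.11, and 65.5% of the WT counts of Tjp1 were in 1 well. Ctnnd1, another catenin, went the other way, from -0.50 to -1.26, so the count of 0 at -1 or lower did not hold there. Tjp1 binds the tail of several connexins, and it stood at 114 CPM in the WT sum and 58.3 CPM in the Renin-null sum. Nedd4, a ubiquitin ligase that acts on Cx43, had counts in 49 WT and 90 Renin-null wells, with a ratio of 0.40.

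Genes whose levels over the quality wells were most like those of each connexin were named as a description, by Spearman correlation. In the 15 WT quality wells the closest of 4985 genes were Mrps33 (0.92), Gm21738 (0.84) and Prkd3 (0.84) for Gja5. For Gja4 they were Plekhn1 (0.94), Sdf2 (0.93) and Ppp1ca (0.89). For Gja1 they were Ttyh1 (0.90), Btaf1 (0.90) and Olfr1186 (0.85), with a Gja1 count in 6 of the wells. For Gjc1 they were Cdv3 (0.93), Trmt10a (0.85) and Ssu72 (0.85). In the 57 Renin-null quality wells, by the lower value of the 2 libraries, the closest of 5268 genes were Endod1 (0.48), Ttyh1 (0.47) and Tent5a (0.44) for Gja5 and Usp7 (0.52), Dstn (0.48) and Ythdf1 (0.47) for Gja4. They were Prdm11 (0.61), Bmp3 (0.59) and Vmn2r20 (0.59) for Gja1 and Zmynd11 (0.44), Camsap1 (0.44) and Filip1 (0.42) for Gjc1. No gene was named for the same connexin in both genotypes. The values are the highest among all candidates over few wells with many counts at or near 0, and the wells share library and depth.

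The correlation with smooth muscle actin kept its sign across sets of wells for Gja4 and Gjc1, but not for Gja5 and Gja1. Some values were near 0, such as 0.07 for Gjc1 in Renin-null quality wells and -0.06 for Gja1 in WT quality wells. Their sign carries little, and the 15 WT quality wells are among the 51 WT wells. No test between sets was made. In the Renin-null quality wells the Spearman correlation with Acta2 was 0.52 for Gja4, 0.15 for Gja5, 0.07 for Gjc1 and -0.19 for Gja1. With Akr1b7 it was 0.36, 0.37, 0.06 and -0.19 in the same order. In the 15 WT quality wells the correlations with Acta2 were 0.36 for Gja4, -0.37 for Gja5, 0.37 for Gjc1 and -0.06 for Gja1, and over all 51 WT wells 0.29, -0.24, 0.42 and 0.35. In the WT quality wells those with Akr1b7 were 0.08 for Gja4, 0.38 for Gja5, -0.22 for Gjc1 and -0.60 for Gja1. Over all wells the smooth muscle list (7 of 7 markers with a count) summed to 11021 CPM in WT, where Acta2 was the most abundant, and to 12210 CPM in Renin-null, where Tagln was. The endothelial list stood at 412 CPM in WT (8 of 13 markers with a count, Esam the most abundant, and Cdh5, Tek, Egfl7, Cldn5 and Plvap at 0) and 375 CPM in Renin-null (13 of 13, Emcn the most abundant). The proximal tubule list stood at 59.9 CPM in WT (7 of 8 markers with a count) and 858 CPM in Renin-null (8 of 8), and its part in the connexin values was not tested. The pericyte and mural list stood at 12404 CPM in WT (6 of 7 markers with a count, Kcnj8 at 0) and 14852 CPM in Renin-null (7 of 7), with Rgs5 the most abundant in both. The mesangial list (3 of 3 in both, Serpine2 the most abundant) stood at 1729 and 2785 CPM. Podocyte markers summed to 86.1 CPM in WT (3 of 5) and 559 CPM in Renin-null (5 of 5), with Synpo the most abundant in both. Those of the loop and distal tubule reached 0.515 and 109 CPM, of the collecting duct 30.7 and 94.8 CPM and of macrophages 1.66 and 6.84 CPM, WT first.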

How the data were processed

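The authors deposited 1 table per genotype of estimated counts per gene, made from 150 bp paired reads with Salmon against GRCm38 and summarised by tximport as length-scaled counts. The submitters' processing notes name FastQC 0.11.5, Trimmomatic 0.39 and Salmon 0.11.2. If the 2 tables were scaled separately, the length factor of a gene could differ between them. Counts were rounded to whole numbers, summed over the wells of a genotype and expressed as CPM. Log2 ratios (Renin-null over WT) have exact conditional intervals, sums exact Poisson intervals and shares exact Clopper-Pearson intervals. Differences of shares have Newcombe intervals. Where 1 genotype had no count, the ratio was taken against a floor of 3 counts, and genes with 3 or fewer in both had none. Reads copied by PCR are not independent molecules, so intervals are too narrow. Alternatives used edgeR 4.0.16 (TMM) and Seurat 5.3.0 with sctransform 0.4.2. The other tools were Python 3.11.15, scipy 1.17.1 and R 4.3.3. Gene positions, transcripts and exons came from GENCODE vM21. No doublet caller was run. The study had inspected the wells under a microscope to find those with single cells. Whether a well held material of more than 1 cell was not tested, also for wells with markers of several lists or with several connexins.

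The members, lists and alternatives were chosen with earlier results of these data known. Named genes were the 4 members in full, other connexins and pannexins at 5 CPM or more, the 3 partner genes with the highest and the 3 with the lowest ratio, and the 3 genes most like each member with detection in 50% or more of quality wells as the entry rule. Gpr89, Nedd4, Ctnnd1 and the wells described by number were chosen after their values were seen. Some genes of the lists are not reported here.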

Additional observations from a re-analysis of the deposited data

How the results depend on the processing

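Settings are given with the log2 ratios of Gja5, Gja4, Gja1 and Gjc1 in that order, beside 0.14, 0.24, 3.57 and 1.37 for summed counts of all wells. The mean of CPM over wells gave -2.65, 0.86, 4.88 and 2.48, and the difference of mean log2(CPM + 1) gave -3.66, 0.83, 0.66 and 0.81. The mean of CPM gives shallow wells full weight, such as WT well 27 (1248 CPM of Gja5 from 55 counts) and Renin-null well 8 (790 CPM of Gja1 from 8 counts). Quality wells gave 0.62, -0.10, 3.47 and 1.17. Thinning to 62000 counts gave -2.44, 1.19, 4.70 and 2.43. TMM gave -0.56, -0.47, 2.86 and 0.67, and CPM without mitochondrial genes and Ren1 gave -0.20, -0.11, 3.22 and 1.03. YFP1 alone gave -5.55, -0.64, 3.98 and 1.22 and YFP2 alone 1.00, 0.70, 3.10 and 1.49. Leaving out the highest well of each genotype gave -4.09, 0.60, 4.35 and 1.44. Counting near-identical wells once gave 0.23, -0.13, 3.67 and 1.43. SCTransform-corrected counts gave -2.57, 0.87, 4.28 and 2.43. Leaving out the 3 highest wells, added after seeing the data, gave -4.44, 4.83, 3.48 and 1.54. Gja1 and Gjc1 kept their sign throughout, and Gja5 and Gja4 did not. The median log2 ratio of all genes moved from 1.17 to 0.47 with TMM, which left each gene's distance from it as it was.

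The difference in the share of wells with a count moved outside its interval in quality wells for Gja5 (-40.7 percentage points, -54.5 to -14.4) and Gjc1 (-3.16), and stayed within it for the other alternatives and for Gja4 and Gja1. The order per length changed for 2 genes in Renin-null without the highest well, for 2 in each genotype without the 3 highest, and for 3 in WT with the mean over wells of CPM. The share of genes at 1 or higher was 43.1% and at -1 or lower 27.2% with TMM, against 52.4% and 18.5%. With 1 sample per genotype, 15 WT quality wells and counts held by a few wells, the ratios have no replicate error. No paired analysis was possible because the result comes from no test and each genotype is 1 sample.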

Other observations

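Pecam1, an endothelial adhesion gene, had counts in 50 of 51 WT wells and 86 of 96 Renin-null wells, with at most 99 counts in a WT well, while Cdh5 had counts in 0 WT wells and 19 Renin-null wells.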
